A study of Mus musculus with 6 samples.

Results

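Transcripts of 10 genes that feed back on MAPK signaling were measured in LT-HSCs of WT and Foxm1 HET mice. The genes were the dual-specificity phosphatases Dusp1, Dusp2, Dusp4, Dusp5, Dusp6 and Dusp10, the Sprouty genes Spry1 and Spry2, and the Sprouty-related genes Spred1 and Spred2. They were taken by gene symbol, and all 10 had a row among the 12179 genes of the normalized table and among the 27179 genes of the table of read counts. LT-HSCs were CD150+CD48-LSK cells sorted from the BM of C57BL/6 mice at 8 weeks of age, with 3 libraries for each genotype, and the methods name 3 pairs of mice. The control mice were labelled as WT. Elsewhere the study gives the name WT to Foxm1fl/+ mice without Cre, and its RNA-Seq methods do not say whether these controls carried a floxed allele. Foxm1 HET mice were labelled as Foxm1 heterozygous, with titles that read FoxM1flPlus and name no Cre driver. By itself that title would also describe a floxed mouse without Cre. The study used Tie2-Cre, which is active in endothelial and blood cells, and inducible Mx1-Cre, and its RNA-Seq methods do not say which was used for these mice.

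MAPK cascades carry signals from growth factor and cytokine receptors through Ras, Raf and MEK to ERK, and stress signals through parallel kinases to JNK and p38. The cascades switch on their own brakes. DUSP phosphatases remove the activating phosphates from the threonine and tyrosine of ERK, JNK or p38. Sprouty and SPRED proteins act upstream, between the receptor and Raf. Several of these brakes are immediate-early genes, whose short-lived transcripts rise and fall within hours of a signal, and in HSCs the receptor Kit is a known source of ERK signaling.

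Dusp1 stood far above the other members in every library. The promoter of Dusp1 is shown because Dusp1 was the only member at a high level in all 6 libraries, and that of Dusp5 as a member whose libraries stood in the same order by replicate number in both genotypes. Each line gives the 250 bases before the RefSeq start in GRCm38.p6, 5' to 3' on the strand of the gene. The Dusp1 stretch is chr17:26508473-26508722 on the minus strand and the Dusp5 stretch is chr19:53528895-53529144 on the plus strand. Capitals mark matches to the core of the cAMP response element (TGACG, either strand) and to the CArG box of serum response elements (CC, then 6 bases that are A or T, then GG).
Dusp1: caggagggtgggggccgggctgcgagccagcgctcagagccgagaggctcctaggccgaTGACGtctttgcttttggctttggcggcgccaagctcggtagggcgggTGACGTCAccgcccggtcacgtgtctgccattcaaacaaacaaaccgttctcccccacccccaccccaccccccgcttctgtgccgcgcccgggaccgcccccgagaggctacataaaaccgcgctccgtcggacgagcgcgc
Dusp5: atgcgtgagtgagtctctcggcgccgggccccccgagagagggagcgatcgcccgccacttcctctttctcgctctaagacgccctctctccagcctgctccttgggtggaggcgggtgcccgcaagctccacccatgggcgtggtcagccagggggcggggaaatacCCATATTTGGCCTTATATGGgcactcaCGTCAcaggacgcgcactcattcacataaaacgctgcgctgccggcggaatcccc

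The Dusp1 promoter held the whole cAMP response element TGACGTCA at position -143 relative to the start and a further core at -191. The Dusp5 promoter held 2 CArG boxes end to end, at positions -82 and -72, and a core on the opposite strand at -55. The counts table places the 5' end of Dusp5 further downstream, at 53529318. RefSeq windows from 250 bases before to 50 after the start were found for 9 of the 10 members, and Dusp4 had none. Both strands were searched. Among these 9 windows, 1 held TGACGTCA, against 1.79% of all 32851 RefSeq windows, and 1 held a CArG box, against 1.63%. The core TGACG, which is part of TGACGTCA, occurred in 4 of the 9 (Dusp1, Dusp2, Dusp5 and Spred2), against 20.8% of all windows. The AP-1 site TGANTCA, the forkhead site GTAAACA and the ETS site ACCGGAAG were found in none of the 9, against 7.81%, 3.65% and 2.3% of all windows. The cell cycle element CHR (TTTGAA), through which Foxm1 is known to act with the MuvB complex, was found in 1 of the 9, that of Dusp1, against 17.9% of all windows. A match shows only that the letters are present.

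The libraries varied widely. They held between 14573002 and 25798509 reads counted on genes, with Foxm1 HET replicate 2 the smallest, and between 4467 and 9894 genes with at least 10 reads. Over the genes with enough reads to be tested, log2 CPM correlated at r of 0.289 to 0.441 between libraries of 1 genotype. Between genotypes r was 0.306 to 0.443, so libraries of the same genotype were no more alike. Foxm1 itself was lower in each Foxm1 HET library (659, 5 and 742 reads, by replicate number) than in each WT library (1182, 2615 and 2942). Of all genes tested, 4.55% had genotypes that did not overlap with Foxm1 HET lower. In the edgeR fit used below, Foxm1 had a log2 fold change of -3.30 (SE 2.33, edgeR adjusted p = 0.961) and was not called. Of the genes that define the sort, Kit had between 10720 and 48031 reads in every library. Slamf1, which encodes CD150, had 2, 1572 and 0 reads in WT, against 8, 0 and 543 in Foxm1 HET. Ly6a, which encodes Sca-1, had 125, 4 and 2 in WT, against 2261, 2 and 1597 in Foxm1 HET. Cd48, against which the cells were sorted, had 221, 6608 and 1 in WT, against 1285, 5 and 22 in Foxm1 HET. Of the 13 LT-HSC markers, between 8 and 13 exceeded 3 reads in a library. Of 8 neutrophil markers, 7 or 8 exceeded 3 reads, with a summed level of 4745 to 13704 CPM in WT and 1383 to 7637 CPM in Foxm1 HET. For B cell markers the sum was 252 to 2011 CPM in WT and 22.6 to 334 CPM in Foxm1 HET, for erythroid markers 82.7 to 157 CPM and 195 to 301 CPM, and for macrophage, T and NK cell and megakaryocyte markers at most 381 CPM. Cd79a, Ebf1, Cd3d, Cd3g, C1qa, C1qb and Hba-a1 had no read in any library. The part that these cells had in the levels below was not tested. In bulk RNA of this kind, fewer cells with a transcript and less transcript per cell cannot be told apart.

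On a scale corrected for gene length (TPM, transcripts scaled to a fixed sum), Dusp1 had a level of 4584, 2323 and 1972 TPM in WT, against 2308, 4727 and 1841 TPM in Foxm1 HET, by replicate number. It ranked between 11 and 25 among all 27179 genes of a library. Dusp1 supplied between 78.7% and 98.7% of the summed TPM of the 10 members. The next member by median TPM over the 6 libraries was Spred2, with 90.7 TPM against 2316 TPM for Dusp1. Its lowest and highest libraries (22.3 and 345 TPM) lay below every Dusp1 value. Spred1 followed at 17.1, Dusp2 at 16.5 and Dusp5 at 5.99 TPM, and Dusp6, Dusp4, Dusp10, Spry1 and Spry2 had medians under 1, between 0.0621 and 0.507 TPM. From Spred2 downward the ranges of neighbours in this order overlapped. In some libraries the order was broken by single high values, such as 426 TPM for Spry1 in WT replicate 1.

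**Figure D1:**
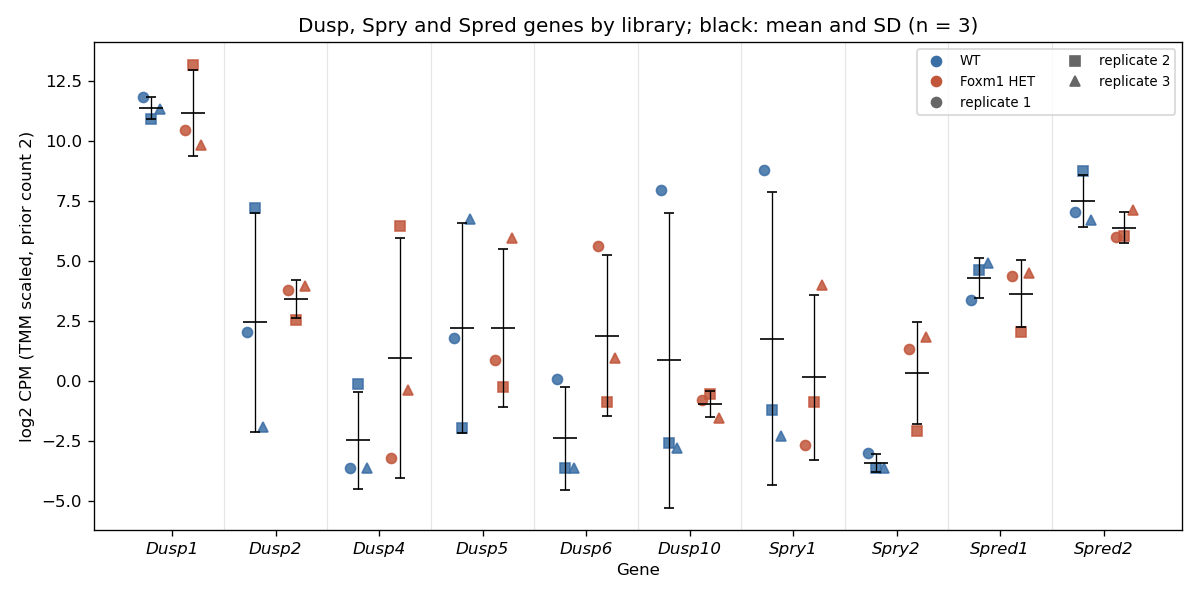
Log2 CPM (reads scaled to library size, with TMM factors) of each gene in the 3 WT and 3 Foxm1 HET libraries; points are libraries, shapes are replicate numbers, and black bars are the mean and SD. Dusp1 lies at 9.85 or above in every library, Spred1 and Spred2 keep within a range of 2.90 and 2.75, and the other genes spread over 5.44 or more.

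Only Dusp1, Spred1 and Spred2 had at least 10 reads in all 6 libraries, which 2516 of the 27179 genes (9.26%) did. The SD of their log2 CPM over the 6 libraries was 1.17, 1.09 and 1.01, against a median of 3.20 over the 8195 genes with enough reads to be tested. Spread depends on level, and among the 31 genes with a mean above 10 log2 CPM, as Dusp1 had, the median SD was 0.940, below that of Dusp1. Of all 8195 genes tested, at most 6.26% had an SD as small as any of the 3. That share does not show that the 3 are unusually stable, since at least 10 reads in every library by itself limits the SD. Their SDs were not compared with those of the 2516 genes that met this condition. The other 7 members had SDs between 2.47 and 4.52. At least 10 reads were found for 8, 5 and 4 members in WT, against 8, 5 and 10 in Foxm1 HET. Of all 27179 genes, 28.9%, 25.2% and 21.9% had as many in WT, against 36.4%, 16.4% and 34.7% in Foxm1 HET.

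The comparison of genotypes asked whether loss of 1 Foxm1 allele changed transcript levels in LT-HSCs. No member passed the test. Of the 10 members, 7 had enough reads to be tested, with 3 estimates above and 4 below 0 in Foxm1 HET relative to WT, and Dusp10, Spry1 and Spry2 were left out by edgeR's filter on low counts. In the edgeR quasi-likelihood fit, adjusted over all genes by the Benjamini-Hochberg method, 0 of the 7 were called, beside 0.329% of all genes (0.317% with Foxm1 HET higher and 0.0122% with it lower). None of the 7 had an unadjusted p under 0.05, where 6.03% of all genes tested did. DESeq2 called none of them (194 of 6195 genes, 3.13%), but it gave no p for 5 of the 7. limma on the normalized table called none of the 10 and no gene at all, with 576 of 12179 genes (4.73%) at an unadjusted p under 0.05 and no member among these. Over all alternatives that gave a p, the adjusted p of these members lay between 0.538 and 1. The median log2 fold change of the 7 was -0.46, beside -0.26 over all genes tested. The SE of the members' log2 fold changes ran from 1.15 to 3.59, so that changes of several fold were not detectable in most of these genes.

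**Figure D2:**
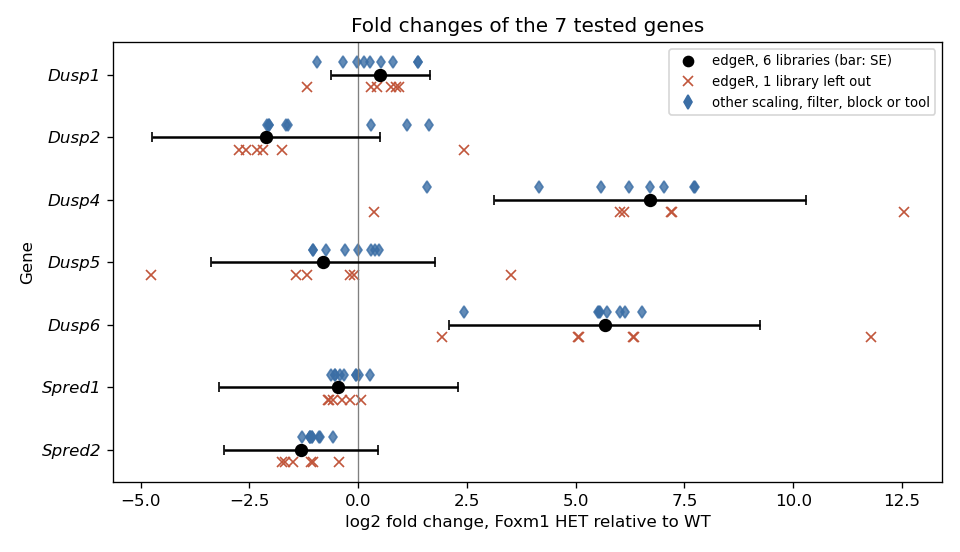
Log2 fold change of Foxm1 HET relative to WT for the 7 tested genes; black points and bars are edgeR's estimate and standard error, crosses are fits without 1 library, and diamonds are other scalings, filters, the replicate block or other tools. Estimates for Dusp1, Dusp2, Dusp5 and Spred1 fall on both sides of 0, and that of Dusp4 runs from 0.37 to 12.55 when 1 library is left out.

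Among the nuclear phosphatases, Dusp1 (MKP-1, which acts on p38 and JNK and also on ERK) lies on chromosome 17 of GRCm38 from 26505591 to 26508472 on the minus strand. Its read counts were 82081, 44702 and 41086 in WT, against 54466, 60886 and 38652 in Foxm1 HET, in the order of replicate number. The genotypes overlapped, and the highest and lowest libraries differed by 2.79-fold in CPM before TMM scaling. The TMM factor, which divides the values of a library, was 0.453 for Foxm1 HET replicate 2 and 1.54 and 1.67 for the other Foxm1 HET libraries, against 0.757 to 1.13 in WT. On that scale Dusp1 was at 11.38 ± 0.456 log2 CPM (SD, n = 3) in WT, against 11.18 ± 1.78 (SD, n = 3) in Foxm1 HET, with Foxm1 HET replicate 2 the highest library at 13.20 and Foxm1 HET replicate 3 the lowest at 9.85. edgeR gave a log2 fold change of 0.51 (SE 1.15, edgeR adjusted p = 0.998), opposite in sign to the difference of -0.20 between the mean log2 CPM. Without Foxm1 HET replicate 2 it was -1.17 (adjusted p = 0.903), and limma-voom gave -0.96 (unadjusted p = 0.0313, adjusted p = 0.9995). In the normalized table Dusp1 was at 11.37 ± 0.604 (SD, n = 3) in WT, against 11.64 ± 0.390 (SD, n = 3) in Foxm1 HET. The sign of the Dusp1 estimate thus depended on the scale and on 1 library. A gene on the opposite strand covers 25.0% of the exon bases of Dusp1, and its count was 0 in every library.

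Dusp2 (PAC-1, chromosome 2, 127336159 to 127338377) encodes a nuclear phosphatase of ERK and p38 found mainly in blood cells. It had 89, 3372 and 3 reads in WT, against 531, 37 and 651 in Foxm1 HET. The 3 WT libraries enclosed all 3 Foxm1 HET libraries, with an SD of 4.57 log2 CPM in WT and 0.785 in Foxm1 HET. In edgeR the fold change was -2.12 on the log2 scale (SE 2.62, edgeR adjusted p = 0.998) and turned to 2.44 (adjusted p = 0.934) without WT replicate 2, where the gene was highest. The mean log2 CPM was higher in Foxm1 HET, by 0.98, so the estimate and the difference of means differed in sign.

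Dusp4 (MKP-2, chromosome 8, 34807610 to 34819894), a nuclear phosphatase of ERK and JNK, had 0, 19 and 0 reads in WT, against 1, 579 and 29 in Foxm1 HET. Foxm1 HET replicate 2 held 95.2% of its summed CPM (before TMM scaling, as for each such share), and the other 2 Foxm1 HET libraries lay within the WT range on the log2 CPM scale. Its estimate was the largest of the 7 tested members, a log2 fold change of 6.71 (SE 3.59, unadjusted p = 0.0620, edgeR adjusted p = 0.879). Without Foxm1 HET replicate 2 it was 0.37 (adjusted p = 0.9999), and without WT replicate 2 it was 12.55 (adjusted p = 0.684).

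Dusp5 (chromosome 19, 53529318 to 53541322) encodes a nuclear phosphatase specific for ERK. It had 76, 4 and 1746 reads in WT, against 68, 5 and 2587 in Foxm1 HET, by replicate number. Replicate 3 was high, replicate 1 intermediate and replicate 2 near the floor in both genotypes, although over all genes tested the deviations of same-numbered libraries showed little correlation (r between -0.0687 and 0.0162, across genes). The mean level was 2.21 log2 CPM in both genotypes, with an SD of 4.37 (n = 3) in WT and 3.29 (n = 3) in Foxm1 HET. edgeR gave a log2 fold change of -0.81 (SE 2.57, edgeR adjusted p = 0.998), moving to -4.78 without Foxm1 HET replicate 3 and to 3.52 without WT replicate 3. Of the 50-base stretches of its transcripts, 20.5% also occur on the reverse strand of the annotated gene AC137853.2, and the use of strand in the counting is not given in the sources used here.

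Dusp6 (MKP-3, chromosome 10, 99263231 to 99267489), the cytoplasmic phosphatase of ERK and a widely used readout of ERK activity, had 22, 0 and 0 reads in WT, against 1876, 3 and 78 in Foxm1 HET. Foxm1 HET replicate 1 held 94.5% of its summed CPM, and Foxm1 HET replicate 2 lay below WT replicate 1, so the genotypes overlapped. edgeR gave a log2 fold change of 5.67 (SE 3.57, unadjusted p = 0.113, edgeR adjusted p = 0.941). It fell to 1.92 (adjusted p = 0.999) without Foxm1 HET replicate 1 and rose to 11.79 (adjusted p = 0.601) without WT replicate 1. Dusp10 (MKP-5, chromosome 1, 184034461 to 184075636) encodes a phosphatase that prefers JNK and p38. It had 5595, 2 and 1 reads in WT, against 19, 4 and 11 in Foxm1 HET. WT replicate 1 held 99.4% of its summed CPM, and the other WT libraries lay below every Foxm1 HET library. With no filter on low counts its log2 fold change was -7.50 (SE 3.20, unadjusted p = 0.0192, edgeR adjusted p = 0.538), and that value rests on WT replicate 1.

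**Figure D3:**
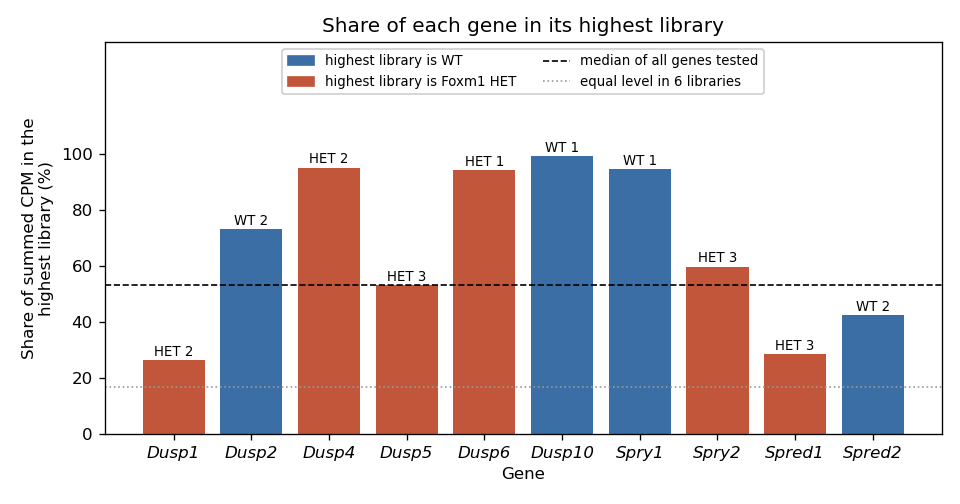
Percentage of the CPM (before TMM scaling) summed over 6 libraries that the highest library holds, for each gene; bar color is the genotype of that library, the dashed line is the median of all genes tested (53.2%) and the dotted line is an equal level in 6 libraries. Dusp4, Dusp6, Dusp10 and Spry1 exceed 90%, each in 1 of 3 different libraries, while Dusp1 and Spred1 stay under 29%.

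Spry1 and Spry2 encode membrane-associated inhibitors that hold back Ras and Raf activation below receptor tyrosine kinases. Spry1 (chromosome 3, 37639950 to 37644599) had 9769, 8 and 2 reads in WT, against 3, 3 and 665 in Foxm1 HET. As for Dusp10, WT replicate 1 held nearly all of it (94.8% of the summed CPM), while Foxm1 HET replicate 3 was the only other library with more than 8 reads. With no filter its log2 fold change was -4.74 (SE 2.43, edgeR adjusted p = 0.538). A gene on the opposite strand covers 24.3% of its exon bases and was counted at 0 in every library, and 21.8% of the 50-base stretches of Spry1 also occur on the reverse strand of the annotated gene Gm42922.

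Spry2 (chromosome 14, 105891947 to 105896819, minus strand) was the 1 member whose genotypes did not overlap. It had 1, 0 and 0 reads in WT, against 93, 1 and 145 in Foxm1 HET, by replicate number. Foxm1 HET replicate 2 held a single read, like WT replicate 1, so the order of these libraries came only from scaling (0.0686 against 0.0498 CPM). The count of 0 in WT replicate 3 allows up to 0.139 CPM. On the log2 CPM scale it was at -3.40 ± 0.367 (SD, n = 3) in WT, against 0.36 ± 2.13 (SD, n = 3) in Foxm1 HET (p = 0.1 by exact permutation, two-sided, which is the lowest value possible with 3 against 3 libraries). Of the 13845 genes with at least 1 read, 6.57% had genotypes that did not overlap and 3.63% did so with Foxm1 HET higher, so that 1 of 10 members is near the background. Among genes tested the share was 8.68% (4.12% with Foxm1 HET higher and 4.55% lower), and 0 of the 7 tested members belonged to it. In the normalized table, where 9.64% of genes did not overlap, Spry2 was also the 1 member that did not. The order of its values there did not follow the reads. Foxm1 HET replicate 2, with 1 read, stood above Foxm1 HET replicate 3 with 145 and replicate 1 with 93. WT replicate 1, also with 1 read, stood below all 3. Lack of overlap in that table is thus no separate evidence of a difference in Spry2 reads. The count of members that did not overlap rests on single libraries. Without WT replicate 1 it was 4 members. Without WT replicate 2 or without Foxm1 HET replicate 2 it was 3, and without Foxm1 HET replicate 3 it was 2. Pooled over libraries, Spry2 had 239 reads of 65825929 in Foxm1 HET and 1 of 64615667 in WT, a ratio of 235 with an exact 95% interval of 41.7 to 9305 that covers counting error only. With no filter, edgeR gave a log2 fold change of 6.65 (SE 4.82, edgeR adjusted p = 0.560), and in the normalized table limma gave 1.06 (adjusted p = 0.930).

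The SPRED proteins bind neurofibromin, the GTPase-activating protein of Ras, and bring it to the membrane. Spred2 (chromosome 11, 19924442 to 20022597) had 2943, 9816 and 1703 reads in WT, against 2453, 424 and 5876 in Foxm1 HET. It was at 7.52 ± 1.09 log2 CPM (SD, n = 3) in WT, against 6.39 ± 0.642 (SD, n = 3) in Foxm1 HET, and Foxm1 HET replicate 3 lay above 2 of the 3 WT libraries. Its fold change in edgeR was -1.32 on the log2 scale (SE 1.78, edgeR adjusted p = 0.998), below 0 in each fit and between -1.76 and -0.44 when 1 library was left out. Spred1 (chromosome 2, 117121450 to 117179337) had 227, 565 and 487 reads in WT, against 802, 26 and 952 in Foxm1 HET. WT libraries lay at 4.32 ± 0.832 log2 CPM (SD, n = 3) and Foxm1 HET libraries at 3.65 ± 1.40 (SD, n = 3), and in the latter replicate 2 was the lowest of the 6 libraries. The log2 fold change of -0.46 (SE 2.74, edgeR adjusted p = 0.998) was smaller than the spread between libraries and became 0.055 without Foxm1 HET replicate 2.

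A single library held over 90% of the summed CPM for 4 members, Dusp4, Dusp6, Dusp10 and Spry1. Of the tested genes, 4.97% had such a share, to be set beside 2 of the 7 tested members (Dusp4 and Dusp6). The share among genes left out by the filter on low counts, as Dusp10 and Spry1 were, was not computed. By CPM before TMM scaling, the highest library was WT replicate 1 for Dusp10 and Spry1, WT replicate 2 for Dusp2 and Spred2, Foxm1 HET replicate 1 for Dusp6, Foxm1 HET replicate 2 for Dusp1 and Dusp4, and Foxm1 HET replicate 3 for Dusp5, Spry2 and Spred1. On the TMM-scaled log2 CPM scale Dusp5 and Spred1 were highest in WT replicate 3 instead (6.77 and 4.93, against 5.95 and 4.51 in Foxm1 HET replicate 3).

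In the wider pathway the edgeR fit called no gene of any list. Related phosphatases and Sprouty and Spred genes had 5 of 11 genes tested (1 above and 4 below 0, none with an unadjusted p under 0.05, median log2 fold change -1.45). Of the ERK cascade from receptors to ERK, 23 of 27 genes were tested, with 11 above and 12 below 0, a median of -0.18 and 1 gene at an unadjusted p under 0.05. That gene was Gab2, an adaptor below cytokine receptors, with 7608, 9040 and 21849 reads in WT, against 2902, 19 and 3916 in Foxm1 HET (log2 fold change -3.61, SE 1.69, edgeR adjusted p = 0.753), and its genotypes did not overlap, as in 4.55% of all genes tested with Foxm1 HET lower. In the opposite direction, found in 4.12% of genes tested, the genotypes of Tek, an angiopoietin receptor named here after its values were seen, did not overlap (242, 10 and 1 reads in WT, against 1082, 91 and 4071 in Foxm1 HET; log2 fold change 3.61, SE 2.91, edgeR adjusted p = 0.982).

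Of the JNK and p38 cascade, 17 of 19 genes were tested, with 8 above and 9 below 0 and a median of -0.26, the same as over all genes tested. Unadjusted p under 0.05 was found for Map2k4 and Map2k7, the kinases that activate JNK, and for Mapk13, which encodes a p38 kinase. Map2k4 had 590, 3691 and 47 reads in WT, against 2604, 25349 and 1961 in Foxm1 HET (log2 fold change 4.38, edgeR adjusted p = 0.390). Map2k7 had 952, 172 and 388 reads in WT, against 6272, 7348 and 279 in Foxm1 HET (log2 fold change 4.12, adjusted p = 0.713). Mapk13 had 242, 1 and 5560 in WT, against 19, 0 and 235 in Foxm1 HET (log2 fold change -5.86, adjusted p = 0.731). For these 3 genes the genotypes overlapped. Other tested genes of this list had genotypes that did not overlap, 1 with Foxm1 HET higher and 2 with it lower. Over all genes tested these shares were 4.12% and 4.55%. Other brakes on Ras and ERK had 12 of 13 genes tested, with 8 above and 4 below 0 and a median of 0.30. Transcripts known to be induced by MAPK signaling had 13 of 17 tested, with 8 above and 5 below 0 and a median of 0.08, and Foxm1 targets of the cell cycle had 7 of 8 tested, with 2 above and 5 below 0 and a median of -2.08. None of these 32 genes had an unadjusted p under 0.05. In each of these lists, 1 tested gene had genotypes that did not overlap. Foxm1 HET was lower in that of other brakes and that of Foxm1 targets, and higher in that of MAPK-induced transcripts. The signs of the medians of the ERK cascade and of the JNK and p38 cascade turned positive with each other scaling, which moved the median of all genes from -0.26 to between -0.13 and 0.14. Over the other 3 scalings the median ran from -0.043 to 0.84 for MAPK-induced transcripts, from 0.24 to 1.08 for other brakes, from -2.26 to -0.52 for related phosphatases and Sprouty and Spred genes, and from -2.22 to -1.48 for Foxm1 targets of the cell cycle.

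**Figure D4:**
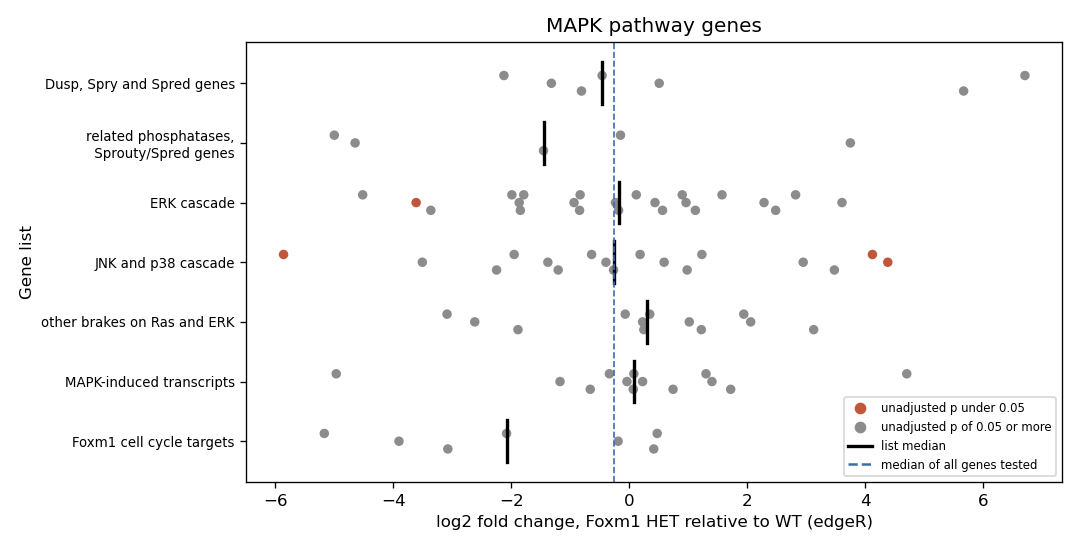
Log2 fold change of Foxm1 HET relative to WT (edgeR) for the tested genes of each list; each point is a gene, colored points have an unadjusted p under 0.05, black lines are list medians and the dashed line is the median of all genes tested (-0.26). Genes of every list lie on both sides of 0, and the 4 colored points belong to the ERK cascade and to the JNK and p38 cascade.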

How the data were processed

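RNA-Seq libraries of LT-HSCs, 3 WT and 3 Foxm1 HET, were compared. The authors aligned reads to GRCm38 with STAR 2.7.2b and deposited read counts for 27179 genes, without normalization. The counting program and its use of strand are not given in the sources used here, and the labels describe a stranded total RNA kit where the study's methods name a Clontech kit. The authors also deposited log2 values for 12179 genes, which have the same maximum in each library and look quantile normalized and corrected for gene length, so that a few reads in a shallow library give higher values than in a deep one. Libraries were grouped by the genotype labels.

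Genotypes were compared by edgeR 4.0.16 (R 4.3.3) on counts (TMM, default filter on low counts, quasi-likelihood test, Benjamini-Hochberg adjustment over 8195 genes, threshold 0.05). SE is the size of a log2 fold change over the root of its F statistic. A prior count of 2 entered log2 CPM, and TPM was computed from the counts and gene lengths. Single genes were compared by two-sided exact permutation tests. DESeq2 1.42.0, limma 3.58.1 (voom, and on the log2 table), other scalings and filters, the replicate block and leaving out each library were alternatives. The methods name 3 pairs of mice but not which mouse gave which library, so p-values measure the spread between these libraries. Counting intervals and floors of 3 reads cover counting error only. The members and gene lists were chosen with earlier results of these data known, and the text names each member, Foxm1 and, from each list, at most 4 genes ranked by unadjusted p under 0.05. Symbols came from the normalized table or RefSeq for 94.1% of genes. Protein sequences were not used here.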

Additional observations from a re-analysis of the deposited data

How the results depend on the processing

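No member was called under any alternative. An unadjusted p under 0.05 was met by Dusp4 with RLE scaling (edgeR), Dusp10 with no filter, Dusp1 with limma-voom and up to 3 members when 1 library was left out. Of the member estimates under alternatives, 86 kept their sign and 15 turned. With all libraries Dusp1 turned to -0.018 with library size only, -0.96 with limma-voom and -0.34 with the replicate block. Dusp2 turned to 1.13 with limma-voom, 0.30 in the normalized table and 1.62 with the replicate block. Dusp5 turned to 0.30 with library size only, 0.48 with limma-voom and 0.39 in the normalized table. Spred1 turned to 0.014 with upper-quartile scaling and 0.28 with library size only. Leaving out 1 library moved Dusp1 from -1.17 to 0.94, Dusp2 from -2.74 to 2.44, Dusp5 from -4.78 to 3.52 and Spred1 from -0.70 to 0.055. The median over the tested members was 0.014 with upper-quartile scaling, 0.28 with library size only, -0.045 over the 3 members with at least 10 counts in every library, 0.48 with limma-voom, 0.28 over all 10 members in the normalized table, and -1.23 to 0.13 without 1 library. Genes called over all genes numbered 27, against 10 with RLE scaling, 43 with upper-quartile scaling, 7 with library size only, 194 with DESeq2, 4 with limma-voom, 0 with at least 10 counts in every library (157 at an unadjusted p under 0.05), 0 in the normalized table (576), and 0 to 29 without 1 library. Genotypes did not overlap for 1 member under each scaling and in the normalized table. Without 1 library it was 1 to 4 members, and the share over all genes was not computed there. The cause of these shifts was not tested.

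With the replicate number as a block, the members' median was -0.0040, Dusp1 was -0.34, Dusp2 was 1.62, and 0 genes were called by edgeR (108 at an unadjusted p under 0.05). The deviations of same-numbered libraries showed little correlation (r from -0.0687 to 0.0162), and not every library correlated best with its own number. Libraries of different number also reached no more than 0.0552, so these values cannot show whether the numbers pair the mice. The main fit used no pairing.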
